A study of Ovis aries with 6 samples.

Results

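Immediate early genes are genes that cells transcribe within minutes of a growth signal, a wound or another stress, from factors that are already present and without new protein synthesis. The first of their products are transcription factors, among them the FOS and JUN proteins, which pair to form the dimeric factor AP-1, while others, such as the phosphatase DUSP1, switch the activating kinases off again. In skin they are known for their response to wounding and to mechanical or ultraviolet stimulation, and in sampled tissue they are also known to respond to the sampling itself. The 10 genes described here, FOS, FOSB, JUN, JUNB, EGR1, ATF3, IER2, IER3, DUSP1 and NR4A1, were chosen by their symbols, with earlier results of these data known. All 10 were present among the 28394 genes listed for each sheep, and all 10 were among the 15320 genes that had at least 10 counts in at least 3 sheep and were tested between the breeds.

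The values come from RNA sequencing of skin from Super Merino (SM) sheep, a fine wool breed, and Small Tail Han (STH) sheep, a coarse wool breed, with 3 ewes of each breed and 1 polyA RNA library for each ewe. The labels call the SM ewes 128, 30034 and 30126 and the STH ewes XW3, XW5 and XW8, and name no treatment. The labels give an age of 9 months for every sheep, and the methods of the study give a younger age. Whole skin was cut from behind the shoulder blade after shaving and disinfection and, by the methods of the study, was put in RNAlater at once, in the season when wool follicles are growing, from 2 groups kept on the same farm and feed. A value is therefore that of a mixture of epidermis, follicles, dermis, muscle and vessels, in which more cells with a transcript and more transcript per cell cannot be told apart. Handling times of single sheep are not given in the sources used here.

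Total counts per library ranged from 28870583 to 44645091, so that 3 counts correspond to 0.0672 to 0.104 CPM (counts scaled to a common library size), a limit that covers counting error only. Markers of the cells of skin were present in every library, with 5 of 6 keratinocyte symbols and 6 of 6 fibroblast symbols listed and counted. Only 2 of 6 wool follicle shaft symbols and 3 of 6 skeletal muscle symbols were listed. Of 6 erythrocyte symbols 3 were listed, and these summed to at most 0.292 CPM in any library, a sum without the symbols that were missing. SM 30126 stood apart from the other libraries, as the highest of the 6 in 33.4% and the lowest in 31.5% of the genes tested.

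Sheep of the same breed differed most in FOS and FOSB, the AP-1 subunits that need a JUN partner. The FOS gene occupies positions 83346063 to 83349261 of chromosome 7 (plus strand) in Oar_v4.0, the build used for all positions here. After normalization of the counts to CPM by the TMM method, FOS had 68.7, 140.4 and 20.4 CPM in SM 128, 30034 and 30126, and 23.1, 20.8 and 114 CPM in STH XW3, XW5 and XW8. SM 30034 and STH XW8 were thus high, SM 128 was intermediate and the other 3 sheep were low, so that the breeds overlapped. The highest SM sheep had 6.87 times the level of the lowest, and the highest STH sheep 5.47 times the level of the lowest. FOSB, on chromosome 14 from 52035094 to 52040198, had 3.74, 6.31 and 0.968 CPM in the SM sheep and 0.908, 0.616 and 9.80 CPM in the STH sheep. These levels rest on 26 counts in STH XW5 and 296 in STH XW8, and the exact 95% Poisson intervals of 0.402 to 0.903 CPM and 8.71 to 10.98 CPM, which cover counting error only, were far apart. FOSB separated the same 3 high and 3 low sheep as FOS, with a 15.9-fold range among the STH sheep. The listed gene LOC105616901 overlaps FOSB on the opposite strand over 4983 bp and had no counts in any sheep, and since the strand setting of the counting is not given, reads of the pair cannot be told apart.

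**Figure D1:**
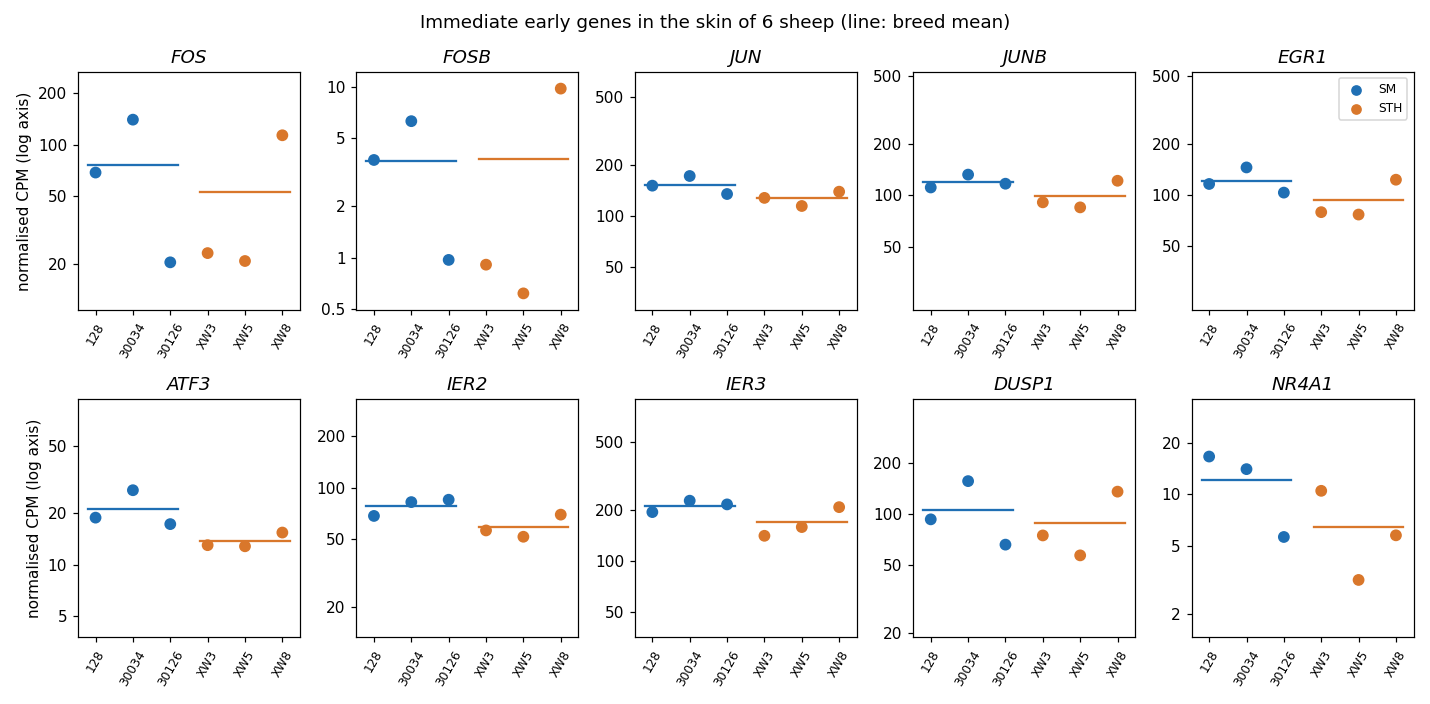
Normalised CPM of each of the 10 genes (vertical log axis, spanning the same fold range in every panel) in the 6 sheep (horizontal axis), with SM in blue, STH in orange and a line at each breed mean. FOS and FOSB spread over 6.87-fold and 15.9-fold, with SM 30034 and STH XW8 on top, whereas JUN, JUNB, IER2 and IER3 spread over at most 1.65-fold.

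The JUN subunits were much more even. JUN, on chromosome 1 from 33186115 to 33188692, had 151, 172 and 134 CPM in the SM sheep and 128, 114 and 139 CPM in the STH sheep. JUNB, on chromosome 5 from 10764778 to 10766382, had 111, 133 and 117 CPM in the SM sheep and 91.2, 85.2 and 122 CPM in the STH sheep. For both genes SM 30034 was the highest and STH XW5 the lowest of the 6 sheep, and the breeds overlapped through STH XW8. Because 2 genes of 1 library share its depth, their ratio does not depend on the normalization between libraries. On the scale of RPKM, the deposited measure that divides by exon length and library size, FOS was at 0.570, 1.02 and 0.190 times the level of JUN in SM 128, 30034 and 30126, and at 0.226, 0.227 and 1.02 times in STH XW3, XW5 and XW8. FOS transcripts therefore matched those of JUN per length in SM 30034 and STH XW8, lay below them in SM 128, and were lowest against them in SM 30126, STH XW3 and STH XW5. The ratio of JUNB to JUN, in contrast, stayed between 1.34 and 1.65 in all 6 sheep. Among FOS, FOSB, JUN and JUNB, FOSB was the lowest in every library, with a ratio to FOS between 0.0314 and 0.0915.

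**Figure D2:**
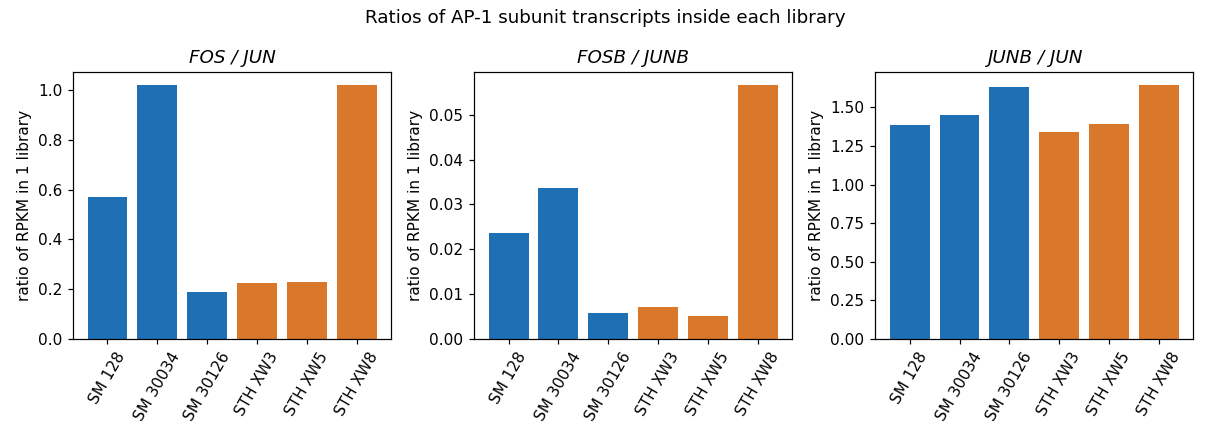
Ratio of the RPKM of 2 AP-1 subunit genes inside each library (vertical axis, from 0) for the 6 sheep (horizontal axis, SM blue, STH orange, 1 library each). FOS to JUN reached 1.02 in SM 30034 and in STH XW8 and lay at 0.227 or below in SM 30126, XW3 and XW5, and FOSB to JUNB had the same 3 low sheep, while JUNB to JUN stayed between 1.34 and 1.65.

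DUSP1 and EGR1 had the same 3 highest sheep as FOS, in the same order, at a smaller amplitude. DUSP1, which encodes a phosphatase that inactivates MAP kinases, lies on chromosome 16 from 4579183 to 4582302 and had 93.1, 156 and 66.1 CPM in the SM sheep and 74.9, 57.2 and 135 CPM in the STH sheep. SM 30034 and STH XW8 were again the highest, and the range was 2.36-fold within SM and 2.37-fold within STH. EGR1, which encodes a zinc finger transcription factor, lies on chromosome 5 from 47156544 to 47158824 and had 116, 145 and 103 CPM in the SM sheep and 79.2, 76.7 and 123 CPM in the STH sheep. STH XW8 lay above SM 128 and SM 30126 in both genes, so that the breeds overlapped.

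NR4A1, which encodes an orphan nuclear receptor, varied widely but in another order. It lies on chromosome 3 from 133939214 to 133954148 and had 16.7, 14.1 and 5.63 CPM in the SM sheep and 10.5, 3.15 and 5.76 CPM in the STH sheep. SM 128 was the highest, and STH XW8, which was high for FOS, was below STH XW3. NR4A1 was the one member whose highest STH sheep was XW3 rather than XW8.

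Within a breed ATF3, IER2 and IER3 ranged over at most 1.58-fold, which was the range of ATF3 in SM. ATF3, a stress-induced factor of the ATF and CREB family on chromosome 12 from 68986824 to 68999708, had 18.9, 27.4 and 17.3 CPM in the SM sheep and 13.03, 12.8 and 15.5 CPM in the STH sheep. It was the one member of the 10 in which every SM sheep lay above every STH sheep, where 12.3% of all genes tested lay that way and 25.6% in either direction. IER2, on chromosome 5 from 10460054 to 10464425, had 68.2, 82.3 and 84.9 CPM in the SM sheep and 56.1, 51.5 and 69.4 CPM in the STH sheep, an overlap of SM 128 with STH XW8 alone. IER3, a regulator of cell survival on chromosome 20 from 27255853 to 27257183, had 193, 226 and 215 CPM in the SM sheep and 140.4, 158 and 207 CPM in the STH sheep, again overlapping through STH XW8. With each library's trend on exon length removed, SM lay above STH for 3 members, ATF3, JUN and IER2, against 14.4% of all genes tested (26.3% apart in either direction). With the deposited RPKM this held for 2 members, ATF3 and JUN, against 13.5% of all genes tested (25.4% in either direction).

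The sheep with the highest levels were the same for most of the 10 genes. SM 30034 was the highest SM sheep and STH XW8 the highest STH sheep for 8 of the 10 members, where 6.16% of all genes tested had that pair, and the 2 sheep were the 2 highest of all 6 for 5 members, FOS, FOSB, JUNB, EGR1 and DUSP1, against 2.68% of all genes tested. Both counts were taken after the values had been seen, and the 10 genes are not independent of each other. Over all genes tested the 9 possible pairs of highest sheep held between 6.16% and 20.2% of the genes. SM 30034 was the highest of the 6 sheep for 7 members against 10.01% of all genes tested, and STH XW5 the lowest for 8 members against 21.5%. The 10 genes together took 0.0881%, 0.111% and 0.0704% of the counts in the SM libraries and 0.0617%, 0.0584% and 0.0956% in the STH libraries. SM 30034 had the most counts of the 6 libraries, 44645091, and STH XW8, with 29690658, fewer than any but SM 128, and the part of depth in these values was not tested. Leukocyte markers summed to 236 CPM in SM 30034 and 175 CPM in STH XW8, the highest and the lowest of the 6, and endothelial markers to 661 and 329 CPM, also the highest and the lowest. Single leukocyte markers did not all follow their sum. PTPRC was highest in STH XW3 at 56.9 CPM and lowest in SM 30126 at 28.6 CPM, and CD68 was highest in STH XW5 at 29.1 CPM. Keratinocyte markers summed to 7892 CPM in SM 30034 and 13129 CPM in STH XW8, with 6422 to 10859 CPM in the other sheep. Most of that sum came from KRT5, KRT1 and KRT10. TP63 was 465 CPM in SM 30034 and 461 CPM in STH XW8. DSG3 was 149 and 158 CPM in these sheep, below STH XW3 at 217 CPM and STH XW5 at 232 CPM. The part of cell content in the order of the sheep was not tested.

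**Figure D3:**
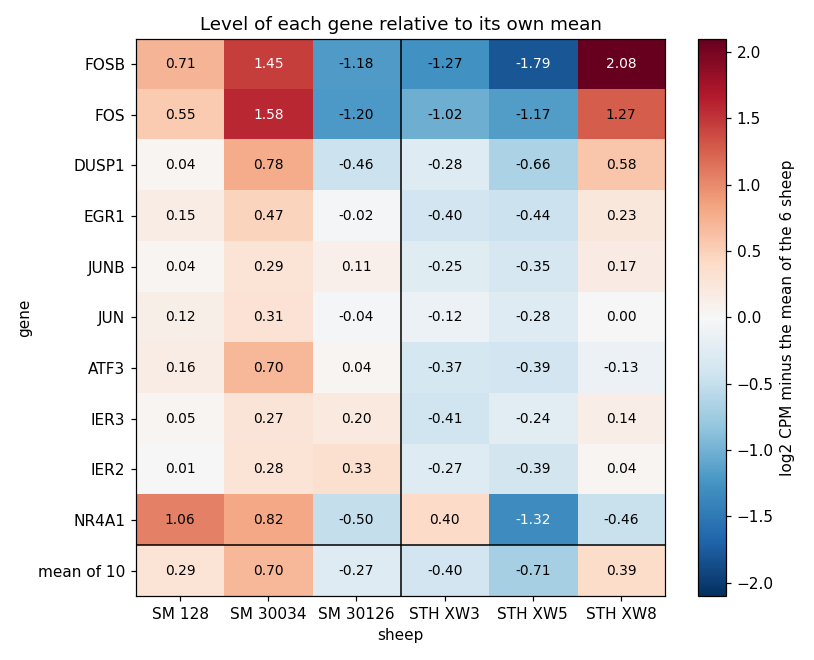
Log2 CPM of each gene minus its mean over the 6 sheep (colour and number in each cell), with genes in rows, sheep in columns and the mean of the 10 genes in the last row. FOSB and FOS range from -1.79 to 2.08 and from -1.20 to 1.58, and the mean of the 10 genes is highest in SM 30034 at 0.70 and lowest in STH XW5 at -0.71.

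The spread between sheep of 1 breed was summarised as the pooled within-breed standard deviation (SD) of log2 CPM. It was 1.77 for FOSB and 1.39 for FOS, larger than in 99.7% and 98.9% of the genes tested, and 0.85 for NR4A1 and 0.63 for DUSP1, larger than in 94.2% and 87.7%. The other 6 members lay between 0.16 for JUN and 0.32 for EGR1, near the median of 0.27 over all genes tested. The 10 genes thus held both some of the most variable and some of the more even transcripts of these libraries, JUN being less variable than most genes, with 20.5% of the genes tested below it. FOSB had as few as 26 counts in a library, whereas FOS had at least 714.

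**Figure D4:**
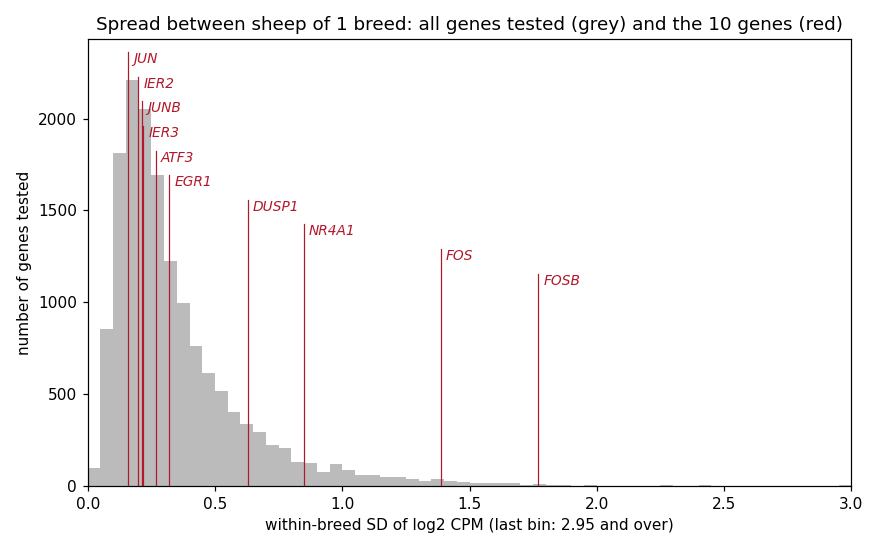
Number of genes tested (vertical axis) by the pooled within-breed SD of log2 CPM (horizontal axis, grey bars, 3 sheep per breed), with a red line for each of the 10 genes. JUN, IER2, JUNB, IER3, ATF3 and EGR1 lie in the bulk of the genes, between 0.16 and 0.32, and FOS and FOSB in the tail at 1.39 and 1.77.

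No difference between the breeds was established for any of the 10 genes. With edgeR's quasi-likelihood test on the counts of all 6 sheep, 0 of the 10 members passed an adjusted p of 0.05 together with a 1.5-fold change, and the same held for 0 of the 15320 genes tested (0.0%). With the quasi-likelihood fit that estimates its own dispersion the members called were again 0, against 0.0131% of all genes tested. DESeq2 and edgeR's likelihood ratio test also called 0 members, against 439 (2.87%) and 352 (2.3%) of the 15320 genes. The 0.0% over all genes thus depended on the test. At the same thresholds the study, using the EdgeR algorithm, reported genes that differed between the breeds. The log2 fold change of SM over STH was above 0 for 9 of the 10 members, against 51.4% of all genes tested, with a median of 0.36 against 0.02 over all genes. That median depended on single sheep, at 0.21 without SM 30034, 0.23 without STH XW5 and 0.65 without STH XW8. At an unadjusted p under 0.05 there were 2 members, ATF3 and IER2, both higher in SM, where 7.21% of all genes tested passed in that direction and 18.0% in either. Mean ATF3 was 21.2 ± 5.41 CPM in SM (SD, n = 3) against 13.8 ± 1.46 CPM in STH (SD, n = 3), and each of the 3 SM values was the higher. Its log2 fold change was 0.62 with a standard error of 0.21, at an adjusted p of 0.247 in the edgeR fit. The fold change was 0.39 without SM 30034 and 0.76 without SM 30126. Over the alternative fits that adjusted p ranged from 0.0875 to 0.628. Mean IER2 was 78.5 ± 8.97 CPM in SM (SD, n = 3) against 59.01 ± 9.32 CPM in STH (SD, n = 3). Its log2 fold change was 0.41 with a standard error of 0.16, at an adjusted p of 0.261 in the edgeR fit, and between 0.0948 and 0.633 over the alternatives. The breeds also differed in their marker sums, which were 1112 to 1332 CPM in SM and 1761 to 2243 CPM in STH sheep for 6 smooth muscle genes. Among these 6 genes TAGLN overlapped between the breeds, at 257 to 357 CPM in SM and 273 to 352 CPM in STH sheep. The sum of 5 adipocyte genes was 30.8 to 65.8 CPM in SM and 139 to 174 CPM in STH sheep, but most of it came from FABP4 alone, at 27.8 to 62.6 and 128 to 169 CPM, and PLIN1, CIDEC and ADIPOQ overlapped between the breeds. The part of such differences in the values of ATF3 and IER2 was not tested.

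For FOS the difference was smaller than the spread. Mean FOS was 76.5 ± 60.4 CPM in SM (SD, n = 3) against 52.6 ± 53.0 CPM in STH (SD, n = 3). Its log2 fold change was 0.54 with a 95% interval of -1.21 to 2.30, at an adjusted p of 0.690 in the edgeR fit. Mean FOSB was 3.67 ± 2.67 CPM against 3.77 ± 5.22 CPM (SD, n = 3 each). Its log2 fold change was -0.03 with a 95% interval of -2.31 to 2.26, at an adjusted p of 0.988 in the edgeR fit. Both intervals leave wide changes in either direction possible, so that 3 sheep of each breed set no close limit. The value of FOS went from -0.24 without SM 30034 to 1.80 without STH XW8, and that of FOSB from -0.69 to 2.27 without the same sheep. FOSB was also 0.82 with limma-voom and -0.03 in the edgeR fit. Without SM 30126, the library that stood apart, FOS was 1.003 and FOSB 0.43.

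The other members had log2 fold changes between 0.24 and 0.91. NR4A1 had 0.91 (standard error 0.49, 95% interval -0.21 to 2.03), with 12.1 ± 5.78 CPM in SM and 6.47 ± 3.73 CPM in STH sheep (SD, n = 3 each). EGR1 had 0.39 (standard error 0.22), IER3 0.33 (standard error 0.17), JUNB 0.28 (standard error 0.17), JUN 0.26 (standard error 0.15) and DUSP1 0.24 (standard error 0.37). As single sheep were left out, NR4A1 ranged from 0.58 without STH XW5 to 1.45 without STH XW3. DUSP1 was -0.17 without SM 30034 and 0.67 without STH XW8. Without STH XW8, EGR1 was 0.64, IER3 0.50 and JUNB 0.45. Without SM 30034, EGR1 was 0.23 and JUN 0.16, whereas the lowest values of JUNB and IER3 were 0.18 without STH XW5 and 0.21 without STH XW3. The number of members at an unadjusted p under 0.05 depended on single sheep. It was 7 of 10 without STH XW8, where 12.5% of all genes tested passed, and the smallest adjusted p among the members was then 0.399. It was 2 without SM 128, where 30.2% of all genes tested passed. It was 0 without SM 30034 or without STH XW5, 1 without STH XW3 and 3 without SM 30126, where 10.6%, 7.4%, 15.1% and 11.3% of all genes tested passed.

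**Figure D5:**
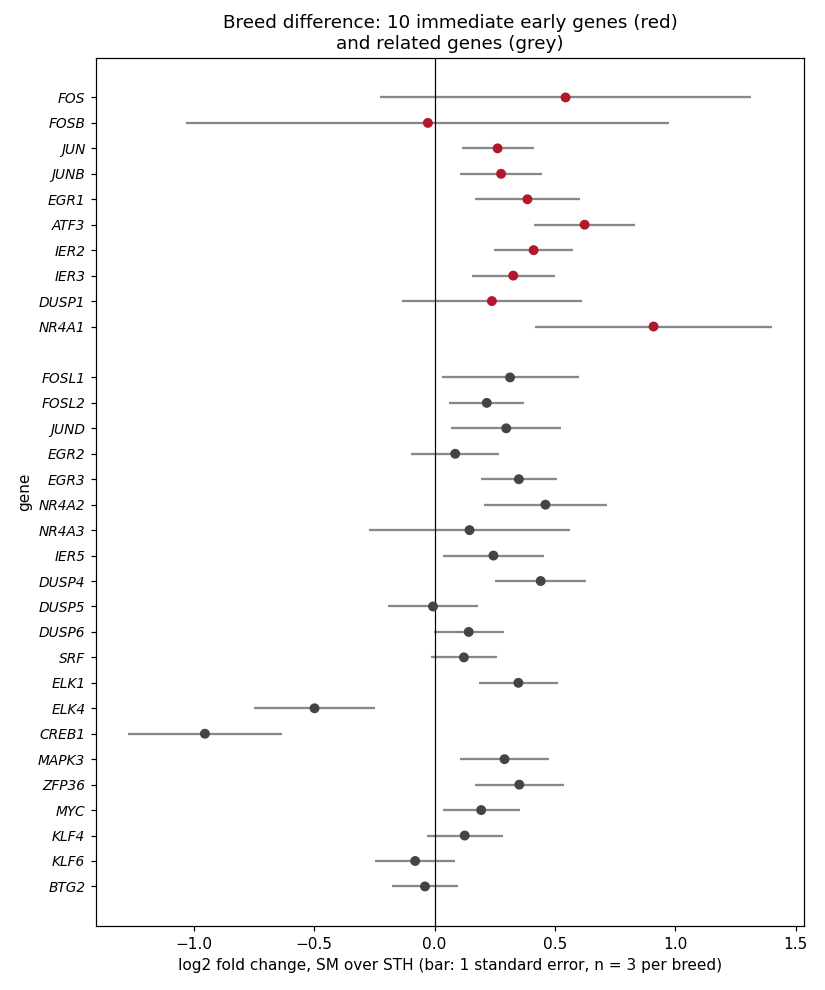
Log2 fold change of SM over STH (horizontal axis, bar 1 standard error, 3 sheep per breed) for the 10 immediate early genes in red and related genes in grey (vertical axis). The red points lie between -0.03 for FOSB and 0.91 for NR4A1, and none of the genes drawn had an adjusted p under 0.247.

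Levels were compared between genes per length, as the median RPKM of the 6 sheep. IER3 was the most abundant of the 10 at 111 RPKM and lay above all the others in every sheep, from 79.9 to 132. Next were JUNB at 57.9, EGR1 at 47.8, JUN at 36.8, DUSP1 at 28.4, IER2 at 23.3 and FOS at 15.3 RPKM, and from JUNB to FOS the ranges over the sheep of neighbours in this order overlapped. ATF3 at 2.21, NR4A1 at 1.20 and FOSB at 0.835 RPKM formed a lower group with overlapping ranges, all below the lowest value of FOS, 6.78 RPKM in STH XW5.

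The close relatives of these genes were more even between sheep of 1 breed than FOSB, FOS, NR4A1 and DUSP1, the members with the widest spread. Over 22 related genes fixed by name, the within-breed SD of log2 CPM had a median of 0.23 and ranged from 0.09 for SRF, the serum response factor that activates FOS and EGR1 transcription, to 0.52 for CREB1, the cyclic AMP response factor, so that 0 of the 22 reached the 0.63 of DUSP1. Within the FOS family, FOSL1 had an SD of 0.22 and FOSL2 of 0.17, and FOSL2, at 135, 138 and 179.8 CPM in the SM sheep and 138, 130.02 and 122 CPM in the STH sheep, was lowest in XW8, the STH sheep with the most FOS. EGR2 and EGR3 had SDs of 0.25 and 0.18, where EGR1 had 0.32, and NR4A2 and NR4A3 had 0.37 and 0.35, where NR4A1 had 0.85. JUND and IER5 went the other way. JUND had 0.27, against 0.16 for JUN and 0.22 for JUNB, and IER5 had 0.30, against 0.20 for IER2 and 0.22 for IER3. The other members, from JUN to EGR1, lay within the range of the relatives. Median SDs were 0.29 over the 10 members and 0.23 over the relatives. Genes outside the 22 also spread widely. Picked by their values, BATF2 had 1.13 and IL1B 1.24, both at low levels, and CHAC1 had 0.84. The differences in spread were not tested. SM 30034 and STH XW8 were both the highest of their breed for 4 of the 22 relatives and the 2 highest of all for 0. Outside the 10 genes, the pair was highest in its breeds for 9 of 35 other immediate early genes and 3 of 13 injury response genes. It was the 2 highest of all for 4 and 3 of them. Over all genes tested the shares were 6.16% and 2.68%. The pair was highest in its breeds for 2 of 13 MAP kinase phosphatases and feedback inhibitors and 1 of 14 other AP-1 and ATF subunits. The same held for 1 of 11 genes of the integrated stress and unfolded protein response. It held for 0 of 29 upstream kinases and transcription factors and 0 of 17 heat shock proteins. Whether the 10 genes differ from these lists in that respect was not tested.

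In the breed comparison 0 of the 22 relatives passed both thresholds, as did 0 of the 15320 genes tested. An unadjusted p under 0.05 in the edgeR fit was found for 2 of the 22, against 18.0% of all genes tested. The log2 fold change was above 0 for 17 of the 22, against 51.4% of all genes tested. DUSP4, another MAP kinase phosphatase, had 0.44 (standard error 0.19), at an adjusted p of 0.272 in the edgeR fit, and lay higher in all 3 SM sheep. EGR3 and ELK1 also lay higher in all 3 SM sheep, where 12.3% of all genes tested lay that way. CREB1 had the opposite sign, with 33.9, 22.2 and 14.2 CPM in the SM sheep and 34.8, 59.7 and 41.7 CPM in the STH sheep, which gave -0.95 (standard error 0.32) on the log2 scale at an adjusted p of 0.247 in the edgeR fit, and every STH sheep lay above every SM sheep.

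Across 7 wider lists of the pathway 0 genes passed both thresholds in either direction, as did 0 of the 15320 genes tested. At an unadjusted p under 0.05 in the edgeR fit, 7.21% of all genes tested were higher in SM and 10.8% higher in STH. Of 35 other immediate early genes tested, 3 were higher in SM at an unadjusted p under 0.05 and 0 higher in STH, with a median log2 fold change of 0.16. Of 29 upstream kinases and transcription factors 0 were higher in SM and 5 higher in STH, of 14 other AP-1 and ATF subunits 1 and 2, and of 13 MAP kinase phosphatases and feedback inhibitors 2 and 0. Heat shock proteins, the chaperones of another stress response, had 0 of 17 higher in SM and 5 higher in STH, the list furthest above the 18.0% of all genes tested at 29.4%. The integrated stress and unfolded protein response had 2 of 11 higher in SM and 0 in STH, and the injury response, which holds interleukins and growth factors, 0 and 1 of 13. DESeq2 and edgeR's likelihood ratio test each called the heat shock genes HSPH1 and DNAJB4, named after their values were seen and both higher in STH, and 0 of the 10 members, where the tests called 2.87% and 2.3% of all genes tested.

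HSPA1A, the inducible HSP70 chaperone, was singled out after the values had been seen as the heat shock gene with the widest spread, and its within-breed SD was 1.19. It had 112, 38.8 and 214 CPM in the SM sheep and 129.6, 40.1 and 177 CPM in the STH sheep. SM 30034, the highest sheep for FOS, was thus the lowest for HSPA1A, and SM 30126, the lowest for FOS, was the highest, whereas STH XW8 was the highest STH sheep for both. Reads of HSPA1A can be shared with near-identical copies of the gene, so that its level is uncertain.

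The 5 genes outside the 10 whose centred log2 profile over the 6 sheep lay closest to the mean profile of the 10 were FSTL4, VWA7, CD27, LOC101114663 and LDLRAD2, at root mean square distances of 0.08, 0.13, 0.14, 0.17 and 0.17. All 5 were low, from 0.190 CPM for FSTL4 in STH XW5 to 3.11 CPM for LDLRAD2 in STH XW8, and closeness over 6 points among 15320 genes is a description only. Of the 10 genes themselves, DUSP1 at 0.16 and EGR1 at 0.19 lay closest to the mean profile.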

How the data were processed

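Each of 6 skin samples, 3 per breed, gave 1 RNA library. The authors checked reads with FastQC and mapped them to Oar_v4.0 in CLC Genomics Workbench. They deposited unnormalized whole counts per gene and RPKM, scaled by exon length and library size. RPKM was above 0 for 4291 genes whose counts were 0, so for those genes the 2 measures rest on different reads. Chromosome numbers were read from the sequence accessions in the files. RPKM served for comparisons between genes and, as an alternative, for the order of the sheep and the overlap of the breeds. The further deposited TPM and CPM columns were not used.

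Groups came from the strain labels. The count filter required 10 or more counts in 3 or more sheep. Depth was 28870583 to 44645091 counts. TMM normalization and the quasi-likelihood test (estimateDisp, glmQLFit, glmQLFTest) of edgeR 4.0.16 in R 4.3.3 were applied with breed as the only term, with Benjamini-Hochberg adjustment over 15320 genes. Genes passed at an adjusted p under 0.05 and a fold over 1.5. Log2 CPM used a prior count of 2, and log2 RPKM, in 1 alternative, a pseudocount of 0.1. Standard errors are the fold change over the root of F. With 3 against 3, exact permutation cannot give a p below 0.1. P-values measure the spread between these single samples of each sheep. Scripts were tested on simulated counts.

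The 10 genes, lists and relatives were chosen with earlier results of these data known. Named were the 10 members, 22 relatives fixed by symbol, list genes past both thresholds, and the 5 genes closest in profile. Some genes of these lists are not reported here. The name table matched 9 of the 10 identifiers, each on the same chromosome. Alternatives were DESeq2 1.42.0, the likelihood ratio test, limma-voom (limma 3.58.1), other filters, normalizations and dispersion, a length correction (loess, span 0.5), and each sheep left out.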

Additional observations from a re-analysis of the deposited data

How the results depend on the processing

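The count of members past both thresholds was 0 under all 15 alternatives. The median log2 fold change over the members ranged from 0.21 to 0.65 as sheep were left out and from 0.31 to 0.41 under the other alternatives. Of 150 refits of single members, 143 kept the direction and the side of the threshold. The 7 that changed sign concerned FOSB (0.82 with limma-voom, 0.039 with the fit that estimates its own dispersion), and, as sheep were left out, FOSB from -0.69 to 2.27, FOS from -0.24 to 1.80 and DUSP1 from -0.17 to 0.67. Members whose breeds do not overlap numbered 1, but 2 with RPKM (25.4% of all genes tested) and 3 with the length trend removed (26.3%), against 25.6% of all genes with CPM. Genes called over all genes tested numbered 0, but 439 with DESeq2, 352 with the likelihood ratio test, 8 with the length trend removed, 2 without a filter, 2 with its own dispersion estimate, and from 0 to 1163 as each sheep was left out, the most without SM 128. Pathway genes called numbered 0, but 3 with DESeq2, 3 with the likelihood ratio test, and from 0 to 10 as each sheep was left out. The cause of these changes was not tested. Counts by order of the sheep and of list calls were added after seeing the data. No paired analysis was possible because the labels give no numbers shared between the breeds. Depth limits FOSB most, at 26 counts in the lowest library.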
